A study of Arabidopsis thaliana with 10 samples.

Results

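AT1G51350 is a protein-coding gene on chromosome 1 of Arabidopsis thaliana, a plant whose leaf transcripts were measured here after changes in light quality. It was 1 of 644 genes with a spot of their own among the 3261 features of a nylon filter. Exactly 1 spot was paired with AT1G51350 alone, and 0 spots named it among several genes. The gene was chosen by measured values of this series: among genes with a spot of their own, it had the highest mean log2 ratio over the 4 times of a shift to light that excites photosystem II. Its values at those times are therefore a description of what chose it. The gene table used here gives the gene no symbol and no described function, so no role is stated for it.

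Photosystem I (PSI) and photosystem II (PSII) work in series in the thylakoid membrane of the chloroplast, and plastoquinone and the cytochrome b6f complex carry electrons from PSII to PSI. Light that mainly excites PSII tends to reduce plastoquinone, and light that mainly excites PSI tends to oxidise it. The redox state of this carrier is known to act on short-term state transitions and on the expression of chloroplast and nuclear genes during longer acclimation. AT1G51350 lies in the nuclear genome.

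All samples were leaf material of Col-0 plants, without any mutant or transgene, grown on soil for 21 days in white light of 8 h per day and pooled from 250 to 500 individuals. In the shift to PSII light, plants acclimated to PSI light for 3 days were moved to PSII light and harvested after 30 min, 2 h, 8 h and 48 h. The shift to PSI light ran from PSII light to PSI light with the same times, and each shift has a further column for plants kept in white light. This gives 10 groups with 1 column each and no replicate columns, although 3 independent experiments per time were made. The labels also name thylakoid membranes as the source, whereas the RNA protocol describes leaf tissue. The tissue could not be checked against marker genes, because the values are ratios and carry no level.

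Each value is a ratio of a condition to a reference, and no error can be attached to it. The shifted plants were taken as the numerator and plants harvested ahead of the shift as the reference, a likely reading of the design that no label states, and every "above" and "below" turns round if the ratio ran the other way. Columns of 1 shift share that reference as the design is read here, so their values are not independent of each other. Unless stated otherwise, values are log2 ratios minus the median log2 ratio of their column, and "2-fold" means at least 2 times, or at most 0.5 times, the column median. In pooled leaf tissue a change of RNA per cell and a change in the number of cells that hold the transcript cannot be told apart. The depth of each column is unknown because signals were not used, and between 98 and 261 features per column were listed at 0, which was treated as no value. AT1G51350 had a ratio above 0 in 10 of 10 columns.

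After the shift to PSII light the transcript of AT1G51350 stood far above the column median at every time. Its deposited ratio was 4.84 after 30 min, 6.75 after 2 h, 3.64 after 8 h and 6.67 after 48 h. Relative to the column median it stood at 5.68 times after 30 min, 7.23 times after 2 h, 3.14 times after 8 h and 11.3 times after 48 h. On the log2 scale these distances from the median were 2.51, 2.85, 1.65 and 3.50, with a mean of 2.63. On this scale the lowest of the 4 values was the one at 8 h and the highest the one at 48 h. As deposited, without the column median taken off, the log2 ratios were 2.28, 2.76, 1.86 and 2.74. The 2 h and 48 h ratios were thus nearly alike, with 2 h slightly the higher. The higher place of 48 h after centring arose from the medians of these columns. The median log2 ratio was −0.77 at 48 h, against −0.10 at 2 h.

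**Figure D1:**
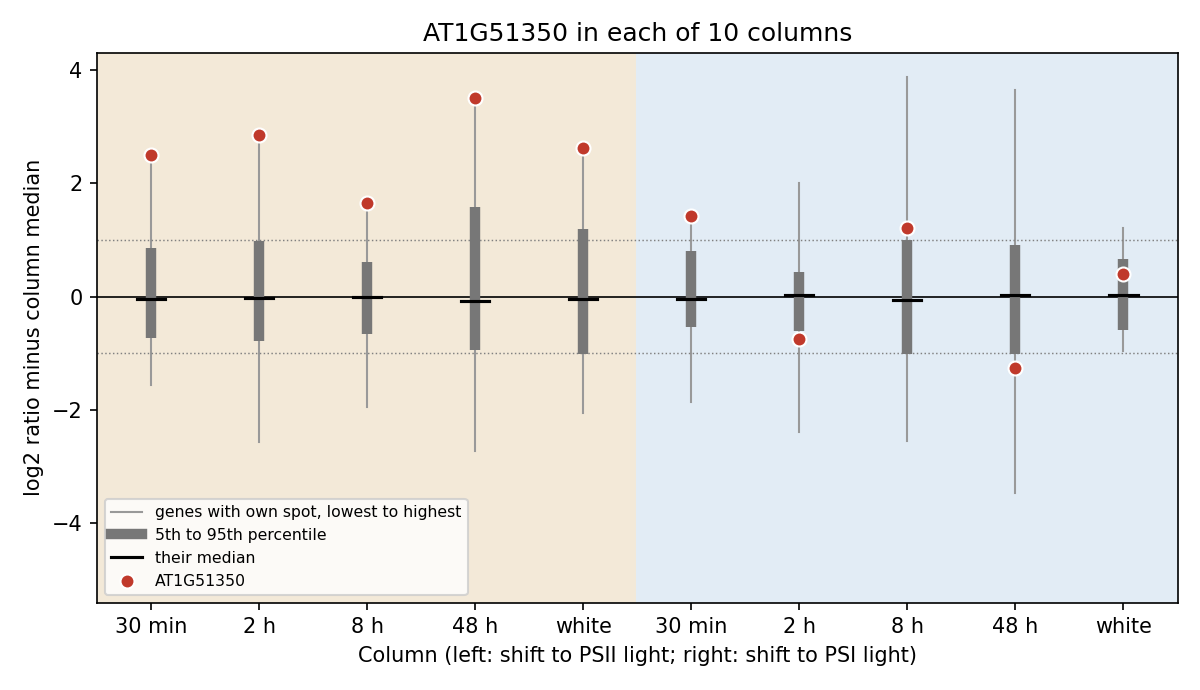
Log2 ratio minus column median (vertical axis) of AT1G51350, red points, in the 10 columns, with the shift to PSII light on the left and the shift to PSI light on the right. Thin lines run from the lowest to the highest gene with a spot of its own, thick bars from the 5th to the 95th percentile, short black lines mark their median, and dotted lines mark 2-fold; AT1G51350 is the top of the range at all 4 times of PSII light and lies below the 5th percentile at 2 h and 48 h of PSI light.

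Within this shift the gene ranked first among genes with a spot of their own in each timed column, of 621 after 30 min, 627 after 2 h, 635 after 8 h and 600 after 48 h. Features 2-fold or more above the median made up 3.77% of all features at 30 min, 6.49% after 2 h, 2.16% after 8 h and 13.6% after 48 h. At all 4 times together 47 of 2949 features, or 1.59%, were that high. These shares are background only. The gene was chosen by the mean of these same 4 values, so its high positions are not independent of the choice. The gene next below AT1G51350 was XERICO (AT2G04240), a RING-type protein gene known from abscisic acid responses, with 1.65 at 30 min and 2.60 at 48 h. AT1G51350 stood 0.85 above it at 30 min and 0.90 above it at 48 h. At 2 h the next gene was DI21 (AT4G15910), known from drought-treated plants, and AT1G51350 stood 0.96 above it. The distance was smallest at 8 h, where AT4G38040 followed 0.23 below.

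By the mean over the 4 times, XERICO followed with 1.84, DI21 with 1.64 and AT3G52070 with 1.60, so the step from AT1G51350 to the second gene was larger than the steps among the next 3. AT1G51350 also had the highest minimum over the 4 times, 1.65. Like the mean and the step below it, this minimum comes from the values that chose the gene. Among all features, including spots paired with several genes or none, its mean ranked second of 2949. The 1 feature above it was a spot paired with several genes, with a mean of 2.73. The 3 features next below, of which 2 were paired with several genes and 1 with no gene at all, had means of 2.44, 2.42 and 2.31. The distance from AT1G51350 to the feature next below it was thus smaller among all spots than among named genes. Spots with the 2 next lower and the 2 next higher numbers on the filter list lay between −1.26 and 0.76 at these 4 times, and it is not known whether the numbers follow the position on the filter.

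The course over time had a dip at 8 h. From 2 h to 8 h AT1G51350 moved by −1.20, the second lowest of the 626 differences among genes with a spot of their own. From 8 h to 48 h it moved by 1.85, the second highest of 600. From 30 min to 48 h the net difference was 1.00, which ranked 22nd of 592. The steps are taken from the 4 values that chose the gene, so their ranks are not independent of the choice. These steps depended on the scale. As deposited, they were −0.89 from 2 h to 8 h, 0.87 from 8 h to 48 h and 0.46 from 30 min to 48 h. After quantile normalization, which gives every column the same distribution, they shrank to −0.21 and 0.36, and the net difference turned to −0.17. The −0.21 was then the 145th lowest of 626, the 0.36 the 109th highest of 600 and the net difference 397th of 592. The 8 h value was the lowest of the 4 on each of these scales. The highest value depended on the scale. It was the one at 48 h when centred and at 2 h as deposited. After quantile normalization it was the one at 30 min, with 2.67 against 2.49 at 48 h. No spread between experiments is at hand against which this dip could be judged. Time of day at harvest was not examined and cannot be told apart here from time after the shift.

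White light, in the column that accompanies the shift to PSII light, gave a deposited ratio of 4.91 for AT1G51350, or 6.16 times the column median. On the log2 scale this was 2.62, between the values at 30 min and at 2 h of PSII light. The gene ranked second of 609 here, with AT4G16410 first at 2.63, a difference of 0.01 in size. Features 2-fold or more above the median made up 8.45% of this column. Against 48 h of PSII light the white light value was 0.88 lower. What the white light column is set against is not stated, and it may share the reference of the timed columns.

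The shift to PSI light, which played no part in the choice of the gene, gave values on both sides of the median. The deposited ratio was 1.94 after 30 min, 0.667 after 2 h, 1.59 after 8 h and 0.525 after 48 h, and it was 1.17 in the white light column. Relative to the column median these were 2.68, 0.596, 2.31, 0.417 and 1.32 times. The 30 min and 8 h values were thus more than 2-fold above the median, the 48 h value was more than 2-fold below it, and the 2 h and white light values were within 2-fold.

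At 30 min of PSI light AT1G51350 was again the highest of 620 genes with a spot of their own, at 1.42 on the log2 scale, followed by AT3G09850 at 1.40. Among all features it ranked 36th of 3108. Of all features 4.67% passed 2-fold upwards in this column. At 8 h its value of 1.21 ranked 24th of 618 genes, far below the 3.88 of AT3G50180, the highest gene there, in a column where 7.86% of all spots passed 2-fold upwards. At 2 h the value was −0.75, which was 17th from the lowest of 628 genes. AT5G49590 was the highest in that column at 2.00, and 2.06% of features were 2-fold or more below the median. At 48 h the value of −1.26 was 21st from the lowest of 627 genes, in a column where 7.3% of all spots were 2-fold or more below and where AT1G02020 was highest at 3.65. In the white light column of this shift AT1G51350 lay at 0.40 and ranked 101st of 622 genes, with AT2G04540 highest at 1.21. Of all features there, 1.88% passed 2-fold upwards.

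Without the column medians taken off, the log2 ratios after the shift to PSI light were 0.96 after 30 min, −0.58 after 2 h, 0.67 after 8 h and −0.93 after 48 h, and 0.23 in white light, so that none was 2-fold away from a ratio of 1. The signs were the same on both scales. Across features, Pearson's r of the 48 h column of this shift was −0.29 with 30 min and −0.14 with 8 h. For the 2 h column it was −0.19 with 8 h, 0.03 with 30 min and 0.13 with 48 h. The 30 min and 8 h columns had r of 0.49 with each other. With 48 h of PSII light, r was 0.47 for 30 min, 0.54 for 8 h, −0.30 for 2 h and −0.29 for 48 h of PSI light. With 2 h of PSII light these were 0.17, 0.37, −0.25 and −0.04, and with 8 h of PSII light they lay between −0.07 and 0.07. Whether all columns share 1 ratio direction is not stated and was not tested. These correlations set 2 h and 48 h of PSI light apart from 30 min and 8 h in part, but not against 8 h of PSII light. They do not show which columns, if any, would have to be turned. As an alternative the ratio was inverted at 2 h and 48 h. With these columns inverted, AT1G51350 becomes 0.75 at 2 h and 1.26 at 48 h and lies above the median in every column.

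As read here, the values after the shift to PSI light alternated above and below the median. From 30 min to 2 h AT1G51350 moved by −2.17, the fourth lowest of 613 differences, from 2 h to 8 h by 1.96, the 15th highest of 609, and from 8 h to 48 h by −2.47, the 9th lowest of 608. The same order of signs, above at 30 min and 8 h and below at 2 h and 48 h, was found for 12.4% of all features and for 8.81% of genes with a spot of their own. The range over the 4 times was 2.69, the 21st highest of 590, and as deposited it was 1.89, the 102nd highest. With 2 h and 48 h inverted the alternation is gone: the steps become −0.68, 0.46 and 0.05 and the range 0.68, which ranks 347th of 590, and the same 12.4% of features lie above the median at all 4 times. The mean over the 4 times was 0.16 and ranked 129th of 590, but it rested on single columns: it was −0.27 without the 30 min column and −0.20 without the 8 h column.

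**Figure D2:**
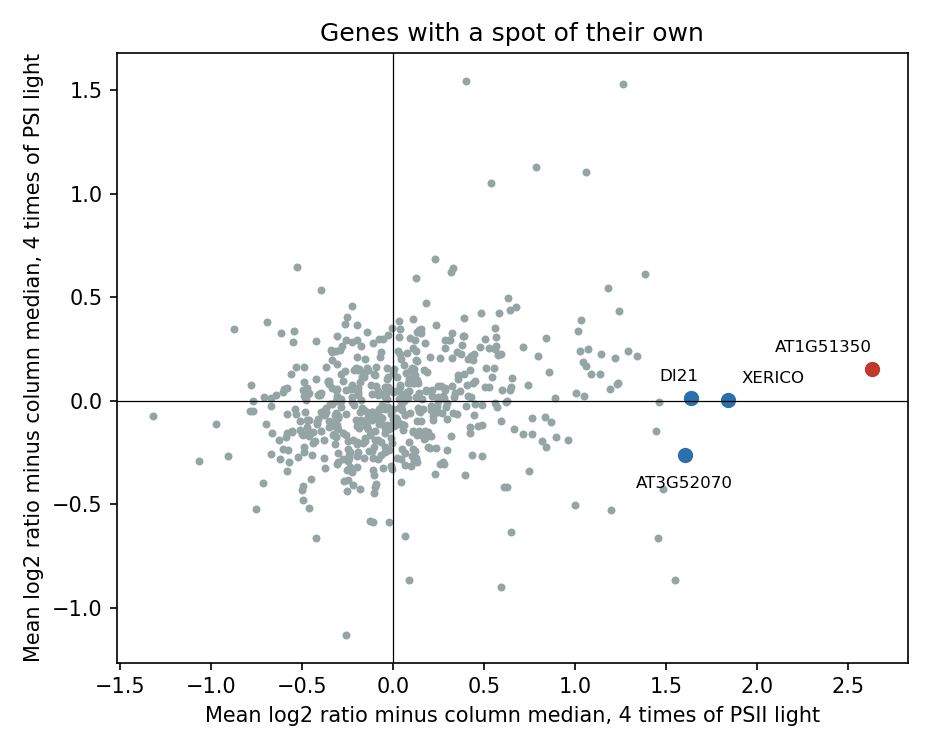
Mean log2 ratio minus column median over the 4 times of PSII light (horizontal axis) against the same mean for PSI light (vertical axis), 1 point for each gene with values at all times of both shifts. AT1G51350, in red, lies at 2.63 and 0.16, and the next 3 genes by the horizontal axis are marked in blue.

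At matched times AT1G51350 was higher after the shift to PSII light than after the shift to PSI light, by 1.08 after 30 min, by 3.60 after 2 h, by 0.44 after 8 h and by 4.77 after 48 h. The 2 h difference was the highest of 616 genes and the 48 h difference the third highest of 592, whereas the 8 h difference ranked 165th of 612. One side of each difference is a value that chose the gene, so these ranks are a description and not independent of the choice. The white light columns differed by 2.23, the third highest of 597. As deposited, the differences were 1.32, 3.34, 1.20 and 3.67 at the 4 times and 2.07 for white light. The shifts have different references, so these are differences between ratios to plants acclimated to opposite lights. They rest on the direction of the columns: with 2 h and 48 h of PSI light inverted they become 2.11 and 2.24. None of them could be tested, since each side is 1 column.

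Over the 10 columns AT1G51350 was 2-fold or more above the median in 7, 2-fold or more below in 1 and within 2-fold in 2. Among the 551 genes with a value in all 10 columns it was the only one that high in 7 or more, that is 0.181% of them. Among all features with complete values 16 of 2783, or 0.575%, were. Of the 7 columns 4 had chosen the gene. As deposited, AT1G51350 had a ratio of 2 or more in 5 columns, those of the shift to PSII light, and of 0.5 or less in 0. The share of all features with a deposited ratio of 2 or more was 1.93% at 30 min, 5.36% after 2 h, 3.66% after 8 h, 4.1% after 48 h and 4.98% in white light. Its range over the 10 columns was 4.77, the third largest of 551 genes. It ran from −1.26 at 48 h of PSI light to 3.50 at 48 h of PSII light. The first rests on a column direction that is not stated, and the second helped to choose the gene.

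Genes whose profile was most like that of AT1G51350 were found by Pearson's r over the 10 columns. This is a description over 10 points that share references within each shift, and 5 of these points lie in the shift that chose the gene. The 6 genes with the highest r were XERICO with 0.966, AT5G06990 with 0.957, AT2G39360 with 0.955, AT2G02590 with 0.950, NdhS with 0.947 and DI21 with 0.941. NdhS (AT4G23890) is a subunit of the chloroplast NADH dehydrogenase-like complex, which takes part in cyclic electron flow around PSI. Spearman's rho for the same 6 genes lay between 0.903 and 0.988. The seventh gene followed at 0.938 without a step. Of the 550 other genes 16 had r of 0.9 or more and 307 had r below 0, with a median of −0.13. Among all other features 109 of 2782, or 3.92%, had r of 0.9 or more, up to 0.989, so the shape of the profile was shared by many spots that carry no single gene name.

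Most of their values lay nearer to the median than those of AT1G51350, which in PSII light is not independent of the choice of the gene. XERICO had 1.65, 1.82, 1.28 and 2.60 at the 4 times of PSII light and 1.92 in white light, and 0.97, −0.02, 0.74 and −1.66 at the times of PSI light with 0.26 in white light. At 48 h of PSI light it was thus farther from the median than AT1G51350. AT1G51350 was above XERICO in 9 of 10 columns, all except 2 h of PSI light. DI21 had 0.30, −0.56, 0.69 and −0.37 at the times of PSI light and −0.21 in white light, and NdhS had 0.62, −0.24 and 0.98 up to 8 h, lay just past 2-fold below the median at 48 h and had −0.13 in white light. At the 4 times both therefore also lay above the median at 30 min and 8 h and below it at 2 h and 48 h, but in white light of that shift both lay below it, where AT1G51350 lay above. The ranges over the 10 columns were 4.26 for XERICO, 3.27 for NdhS, 2.84 for DI21, 2.39 for AT2G39360, 1.97 for AT2G02590 and 1.58 for AT5G06990, all smaller than the 4.77 of AT1G51350. AT5G06990, AT2G39360, AT2G02590 and DI21 stayed within 2-fold at every time of PSI light, and AT5G06990 and AT2G02590 had values from −0.12 to 0.87 and from −0.76 to 0.10.

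**Figure D3:**
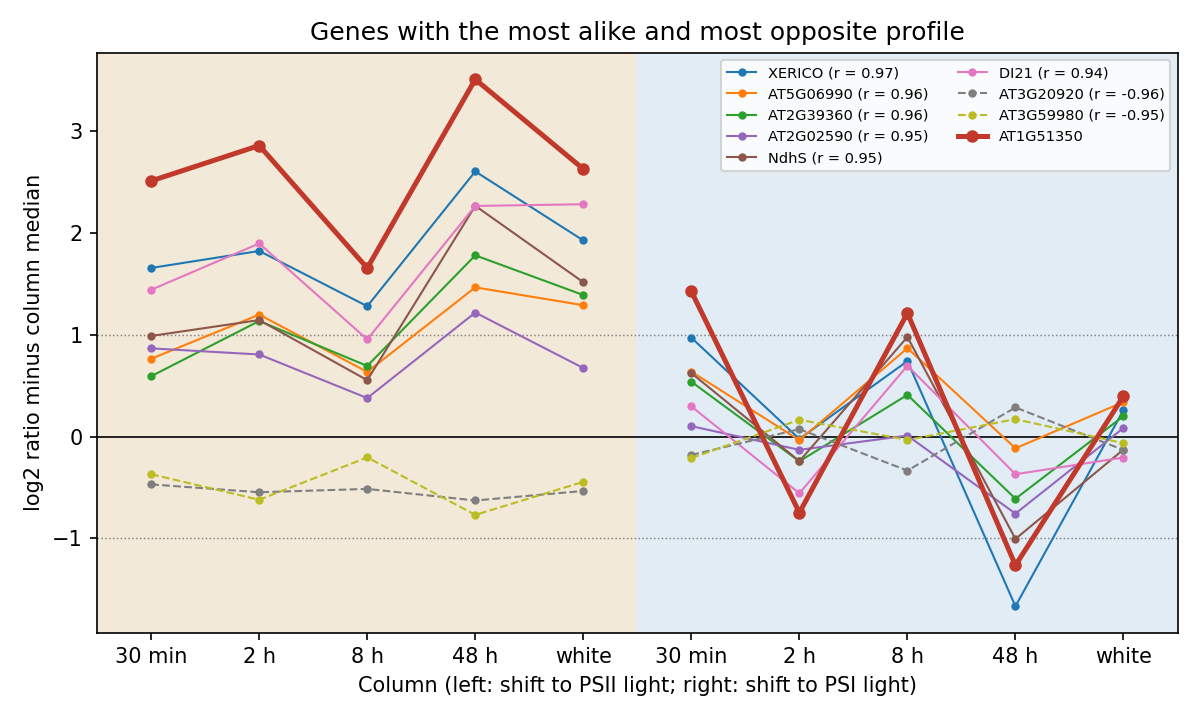
Log2 ratio minus column median (vertical axis) in the 10 columns for AT1G51350 (thick red line), the 6 genes with the highest Pearson's r (solid lines) and the 2 with the lowest (dashed lines), with dotted lines at 2-fold. Lines join the columns of 1 shift for legibility; the 6 similar genes are also lower at 8 h of PSII light than at 2 h and 48 h and lie below AT1G51350 at all 4 times of that shift.

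The most opposite profiles were those of AT3G20920, with r of −0.961, and AT3G59980, with −0.954. Neither was 2-fold away from the median in any column. AT3G20920 lay between −0.63 and −0.47 at the 4 times of PSII light and at 0.29 at 48 h of PSI light. AT3G59980 lay between −0.77 and −0.20 and at 0.17 in the same columns. Their opposition to AT1G51350 is thus one of shape with ranges of 0.91 and 0.94, against 4.77 for AT1G51350.

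The choice of similar genes depended on the measure. XERICO was among the first 6 in all 14 alternative ways of ranking. These were Spearman's rho, ratios as deposited, mean absolute difference, the inverted columns, and each of the 10 columns left out in turn. The other 5 genes were among the first 6 in 8 to 10 of the 14. By mean absolute difference, which also counts the size of the values, XERICO was nearest at 0.61, followed by DI21 at 0.76 and AT4G32060 at 0.80, and 2 of the 6 genes were shared with the ranking by r.

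A comparison with the features that behaved most alike in PSII light shows where AT1G51350 lay within them in columns that did not choose them. The 47 features that passed 2-fold above the median throughout PSII light had a median of 0.47 after 30 min, −0.02 after 2 h, 0.77 after 8 h, −0.81 after 48 h and 0.35 in white light of the shift to PSI light. At 48 h 21 of these 47 were 2-fold or more below the median, against 7.3% of all features, which become 21 of 47 and 7.3% above it if that column is inverted. At 8 h 20 of 47 were 2-fold or more above, against 7.86%. AT1G51350 was 5th of 46 at 30 min, 18th of 47 at 8 h and in white light, 41st of 47 at 2 h and 34th of 47 at 48 h. It lay on the same side of the median as the group's own median in all 5 columns, and farther from it in each.

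Of these 47 features 6 had a single gene name, which are 1.02% of 588 such genes. The other 5, named here after their values were seen, were XERICO, AT2G46300, AT3G52070, AT4G38040 and AT4G39690. Of the 6, AT1G51350 was the highest at each time of PSII light and in its white light column. After the shift to PSI light XERICO had the sign of AT1G51350 in all 5 columns and AT4G39690 at all 4 times, and the other three differed from it in sign at 1 or more times. At 30 min they ranged from −0.74 for AT2G46300 to 0.97 for XERICO, against 1.42 for AT1G51350. At 8 h they ranged from −1.08 for AT4G38040 to 1.23 for AT3G52070, which was 0.02 above AT1G51350. At 48 h AT4G39690 was the lowest at −3.46, and AT2G46300 was the highest at 0.13. Genes that were high throughout PSII light thus lay on both sides of the median in PSI light at 30 min, 2 h, 8 h and 48 h.

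**Figure D4:**
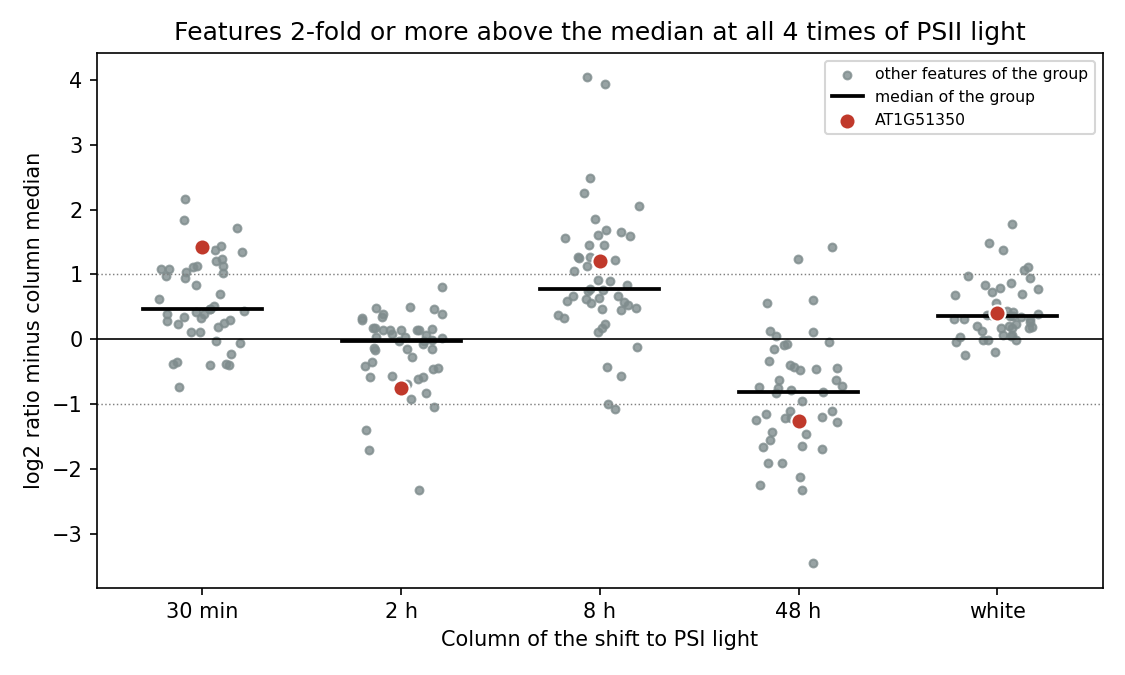
Log2 ratio minus column median (vertical axis) in the 5 columns of the shift to PSI light for the 47 features that passed 2-fold above the median throughout PSII light. Grey points are the other features, spread sideways for legibility, black lines the median of the group, dotted lines 2-fold, and red points AT1G51350, which lies above the group's median at 30 min and 8 h and below it at 2 h and 48 h.

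No gene near AT1G51350 could be set beside it. Of the 40 genes nearest to it in the TAIR10.1 gene table, 20 on each side with AT1G51340 and AT1G51355 next to it, 0 had a spot of their own and 0 were named by a spot with several genes.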

How the data were processed

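The values are linear ratios per spot, deposited as 1 column per condition; per the labels' protocols, total RNA was reverse transcribed with a primer mix for 1827 genes and 33P and hybridised to filters with 3292 tags. The mix covers fewer genes than the filter has tags, and whether it covers AT1G51350 was not checked. Scaling, background correction, direction and the way the 3 experiments were combined are not stated in the sources used. Spots at 0 were treated as missing. Of 3262 spots 645 were paired with 1 gene, 829 with several and 1788 with none, by an old platform annotation; 643 of the 645 identifiers were found in the TAIR10.1 table. The 2 spots of 1 gene were averaged as log2 ratios, leaving 3261 features. The deposited ratio columns were put on the log2 scale and centred on the column median (Python 3.11.15, pandas 2.3.3). With 1 column per group no test was made, and the number of arrays limits the precision.

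The named genes are AT1G51350, the next 3 by mean in PSII light, the 6 most and 2 least correlated, and the first gene of each column, or the second where AT1G51350 is first. AT2G46300, AT4G39690 and AT4G32060 were named outside this rule after their values were seen. Genes whose names hold armadillo-repeat or CTLH terms, 12 in the gene table, had 0 spots of their own. Members and lists were chosen with earlier results of these data known. Ranks, centring and likeness were tested on simulated data. Alternatives were no centring, centring on named genes, quantile normalization, a pseudocount of 0.432, inverted columns, other folds and columns left out.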

Additional observations from a re-analysis of the deposited data

Results flagged for a closer look

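At 2 h and 48 h AT1G51350 lay on opposite sides of the column median in the opposite shifts. At 2 h the values were 2.85 in PSII light and −0.75 in PSI light, a difference of 3.60, and at 48 h they were 3.50 and −1.26, a difference of 4.77. Each side is 1 column, so the differences were not tested, and the PSII side of each is a value that chose the gene. If the PSI light ratio is inverted at these times, both shifts lie above the median and the differences are 2.11 and 2.24. At 30 min and 8 h both shifts placed the gene above the median.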

How the results depend on the processing

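The mean of AT1G51350 over the 4 times of PSII light lay between 2.17 and 2.95 under all alternatives, and its values at each of these times and in the white light column kept their sign and stayed past 2-fold. The mean over PSI light is not settled in sign: it was 0.03 as deposited, 1.16 with 2 h and 48 h inverted, −0.27 without 30 min and −0.20 without 8 h, against 0.46 without 2 h and 0.63 without 48 h. Calls in PSI light depended on the scale. As deposited, 30 min, 8 h and 48 h were within 2-fold of a ratio of 1, at 0.96, 0.67 and −0.93. Quantile normalization gave 0.79 at 8 h and −0.98 at 48 h, both within 2-fold of a ratio of 1, and −1.10 at 2 h, past it. The quantile values were not centred, so these calls are not made against the column median. With a pseudocount, 8 h was 0.87 and 48 h −0.81. With 2 h and 48 h inverted these became 0.75 and 1.26, at ranks 17 and 21. Among all features the ranks in PSII light were 2, 4, 7 and 3 from 30 min to 48 h and 11 in white light. In PSI light they were 36, 3047, 166 and 3002, and 480 in white light, out of more features. Of the 6 most similar genes, 3 remained by Spearman's rho, 3 as deposited, 2 by mean absolute difference and 3 with the inverted columns. With single columns left out 3 to 6 remained, and the 3 were without 2 h or without 48 h of PSI light. The count of columns 2-fold or more above the median went from 7 to 5 as deposited and to 8 with the inverted columns. Steps between times and the range in PSI light on other scales, and the 47 features with the 48 h column inverted, are alternatives chosen after seeing the data. The causes were not tested. No paired analysis was possible because the labels carry no replicate numbers and each group has 1 column. A filter on low levels could not be made, since ratios hold no levels and signal over background is unknown.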
